A study of Mus musculus with 384 samples.

Results

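Trp63, Bcl11a, Bcl11b, Sox9, Sox10 and Irx4, 6 transcription factor genes grouped here as basal mammary lineage factors, were followed across single mouse cells. They were taken by name from a table of read counts with 49585 gene rows, and all 6 members were found. The counts came from 1 plate of wells prepared by a modified Smart-seq2 method, which reads whole transcripts. The embryonic gate held cells with high CD49f and a high signal of the Lgr5-EGFP-IRES-CreER reporter, sorted from the skin of female Lgr5-GFP embryos at embryonic day 14, skin that contained the mammary buds. The basal gate (CD24+CD29Hi) and the luminal gate (CD24+CD29Lo) came from mammary glands of adult mice named Rosa-tdTomato in the labels, which give no age. The sorts removed dead cells and those positive for CD45, CD31 or CD140a, proteins of blood, vessel and mesenchymal cells. Lgr5 is a receptor of the Wnt pathway that many epithelial progenitors carry, and its reporter selects the cells of the embryonic gate only.

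Wells of single cells were used if they had at least 50000 reads on genes, spike-ins not counted. This kept 347 single cells, of which 36.6% were embryonic, 31.1% basal and 32.3% luminal, and left out 10, 10 and 9 wells. In addition 1 well per gate received 50 cells. The kept cells had 52500 to 1836609 reads on genes. Embryonic cells had reads of 5515 genes (median), luminal cells of 3643 and basal cells of 2798. No animal or litter is named, so each gate is 1 sample and cells are not replicates. No difference between gates therefore has a replicate check or a test, and every interval is an exact 95% interval of counting error (Clopper-Pearson for shares, conditional for ratios of summed reads). Reads were not tagged by molecule, so amplified copies count more than once and these intervals cover counting error alone. The gates also lay in blocks of plate rows, and gate and plate position cannot be told apart: the top 6 rows held all but 1 of the basal cells but 8 embryonic and 16 luminal cells.

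By rank correlation with the wells of 50 cells, 8 basal cells matched the luminal well best and 2 the embryonic well. In the luminal gate 2 cells matched the embryonic and 1 the basal well, and 1 embryonic cell matched the luminal well. Results that rest on these cells are given with and without them. In the 4 empty wells, with 34 to 563 gene reads each, all members had 0 reads.

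Mammary epithelium has an inner luminal layer that makes milk or senses hormones and an outer basal layer that contracts. Both arise from an embryonic ectodermal bud. Trp63 encodes p63, a p53-family factor that stratified and basal epithelia need to form. Sox9 and Sox10 are SoxE factors with roles in progenitor and neural crest cells, Bcl11a and Bcl11b are zinc finger repressors known from blood cells and skin, and Irx4 is a homeobox factor of the Iroquois family.

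The 6 genes did not behave as a common basal set. Trp63 and Irx4 were highest in the basal gate, though for Trp63 the embryonic gate was higher when spike-ins served as the total, and both had few luminal reads. Bcl11a and Bcl11b were highest in the embryonic gate and present in few basal cells. Sox9 was at similar levels in both adult gates, and Sox10 was highest in the basal gate with 27 embryonic reads in all. The basal gate thus had the highest level of Trp63, Sox10, Irx4 and, by 1.19-fold over the luminal gate, Sox9, but not of Bcl11a or Bcl11b. With spike-ins as the total the luminal gate was above the basal gate for Sox9. Levels below are counts per 1e+06 gene reads (CPM), with a gene's reads summed over the cells of a gate.

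**Figure D1:**
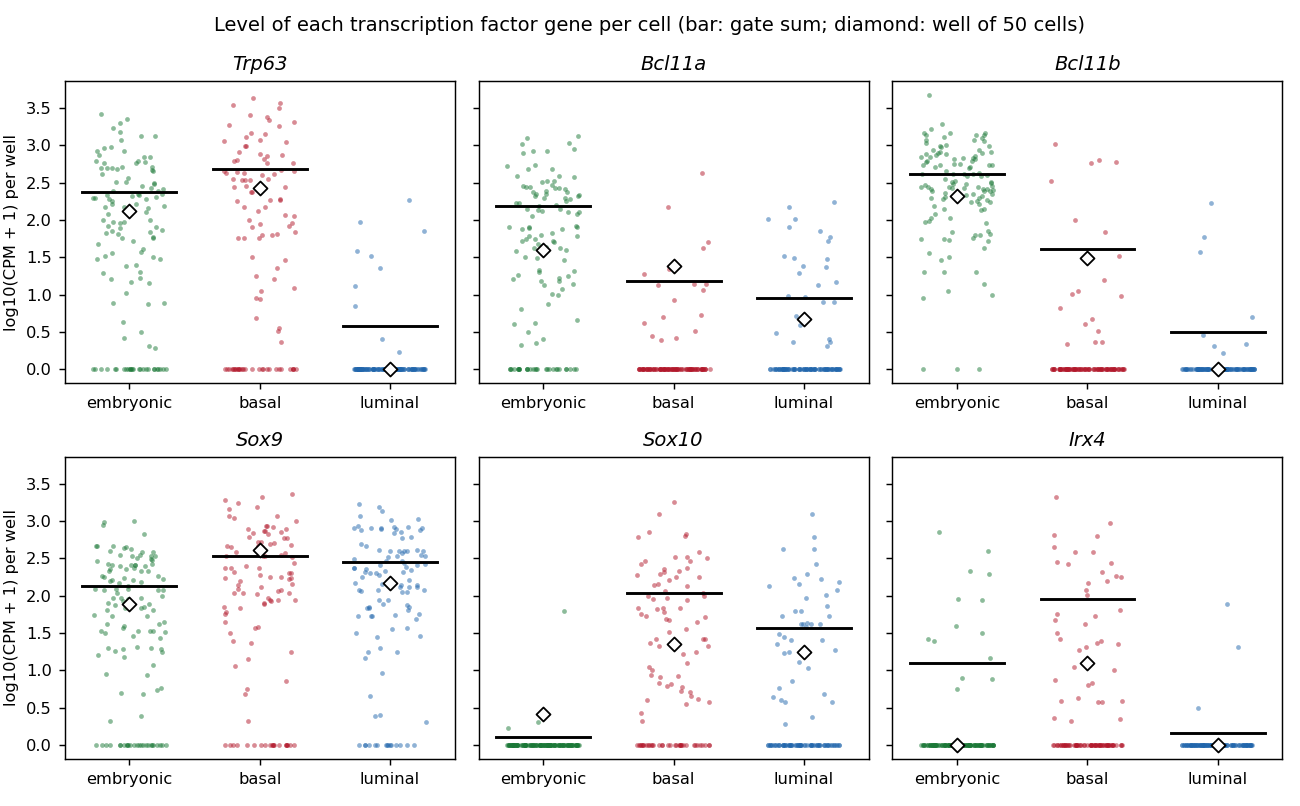
Level of each gene in every kept cell as log10(CPM + 1) (y axis) by gate (x axis). Points are cells, black bars the summed level of the gate and white diamonds the well of 50 cells. Trp63 stands at 2.78 CPM in the luminal gate against 480.8 in the basal gate, and Bcl11b at 410.9 CPM in the embryonic gate against 40.1 in the basal gate.

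Trp63, the factor that maintains basal epithelial identity, was at 480.8 CPM in basal cells, 235.3 in embryonic cells and 2.78 in luminal cells. Basal cells ranged from 0 to 4301 CPM with a median of 105.6, embryonic cells from 0 to 2583 with a median of 89.4, and luminal cells from 0 to 185 with a median of 0. The basal and embryonic ranges overlapped over most of their length, while 10 luminal cells had a read. Of these luminal cells, the cell in plate row K had 1.55 CPM, and the others lay in plate row F, which also held basal cells. The part of plate position in the luminal Trp63 reads was not tested. Basal exceeded luminal cells 173-fold (150 to 200.5) and embryonic exceeded luminal cells 84.6-fold (73.4 to 98.2). The basal level was 2.04-fold above the embryonic level (2.01 to 2.08).

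The wells of 50 cells gave the same 2.04-fold step (1.56 to 2.70), with 269.1 CPM in the basal and 131.9 in the embryonic well. The luminal well had 0 Trp63 reads, so the basal well was at least 47.8-fold higher with 3 reads as the limit in the luminal well. With spike-in reads in place of gene reads as the total, the log2 ratio of basal over embryonic Trp63 turned from 1.03 to −0.31. The basal and embryonic order of Trp63 thus depends on which total is used. The luminal cell with the highest Trp63, at 185 CPM, was the luminal cell that matched the basal well. In the luminal cells without those that match another gate the level was 1.85 CPM.

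For shares, each cell was thinned at random to 50000 reads and a gene was called detected at 5 or more reads. Where no cell of a set had a gene detected, the share that this allows is given as 3 cells of the set, in place of an interval. Trp63 was detected in 58 basal cells (53.7%, interval 43.9% to 63.4%) and in 61 embryonic cells (48.03%, 39.1% to 57.1%). It was detected in 2 luminal cells (1.79%, 0.217% to 6.30%). The basal and embryonic intervals overlapped. A cell without detection is not a cell without the gene at this depth: with 1 read as the limit the shares were 67.6% and 70.1%. In full-depth cells, 5 reads of Trp63 were seen in 65.7% of basal and 74.02% of embryonic cells. Basal cells with Trp63 had a median of 2924 genes against 2295 in the other basal cells. The part of this difference in the share detected was not tested.

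**Figure D2:**
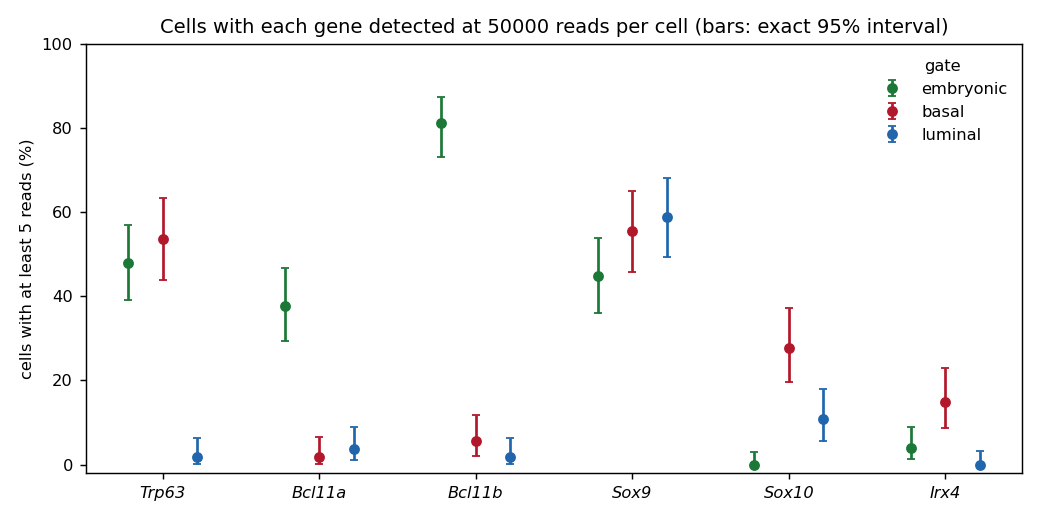
Percent of cells with at least 5 reads of each gene after thinning to 50000 reads (y axis) by gene (x axis) and gate (colour), with exact 95% intervals as bars. Bcl11b was detected in 81.1% of embryonic cells and in at most 5.56% of the cells of an adult gate, while the intervals of Sox9 overlap in all 3 gates.

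Irx4 also had its highest level in the basal gate, but few cells carried it. Its level was 88.9 CPM in basal, 11.5 in embryonic and 0.468 in luminal cells. Basal cells ranged from 0 to 2062 CPM with a median of 0 and an upper quartile of 20.1, embryonic cells from 0 to 716.2 and luminal cells from 0 to 76.2. In the basal gate 66 cells had no read, and the cell at 2062 CPM held 37.9% of all basal Irx4 reads. Without that cell the basal level was 56.1 CPM. The basal gate stood 189.8-fold above the luminal gate (134.3 to 277.9) and 7.74-fold above the embryonic gate (7.23 to 8.28).

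Detection of Irx4 was 14.8% in basal cells (16 cells, 8.71% to 22.9%) and 3.94% in embryonic cells (5 cells, 1.29% to 8.95%). No thinned luminal cell had 5 reads, which allows a share of up to 2.68%, while at full depth 2 luminal cells had 5 or more. The basal well of 50 cells held 7 Irx4 reads (11.6 CPM) and the embryonic and luminal wells 0. That basal level lay below the single-cell sum, and with 3 reads as the limit the basal well was at least 2.41-fold above the embryonic well and 2.07-fold above the luminal well. Of the 32 luminal reads, 65.6% lay in cells that matched another gate's well. The luminal cells with the most Irx4, at 76.2 and 19.4 CPM, lay in plate row F, which also held basal cells.

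Sox9, a factor of progenitor, ductal and cartilage cells, was the most evenly spread member. It was at 337.5 CPM in basal cells, 282.7 in luminal cells and 133.9 in embryonic cells. Per-cell medians were 150.6, 145 and 69.3 CPM, and highest values 2295, 1691 and 1006 CPM, with cells at 0 in every gate. The basal and luminal sums differed 1.19-fold (1.17 to 1.22), and the embryonic level was 2.52-fold below basal (2.46 to 2.58) and 2.11-fold below luminal (2.06 to 2.16). The quartiles ran from 20.9 to 481.8 CPM in basal and from 35.97 to 392.9 CPM in luminal cells, so these ranges of cells overlapped.

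The wells of 50 cells placed Sox9 differently. The basal well was at 403.7 CPM against 148.3 in the luminal well, a 2.72-fold step (2.10 to 3.56), and 75.6 in the embryonic well. Sox9 was detected in 55.6% of basal (45.7% to 65.1%), 58.9% of luminal (49.2% to 68.1%) and 44.9% of embryonic cells (36.1% to 53.96%), and these intervals overlapped. Scaled to spike-ins, the log2 ratio of Sox9 for basal over embryonic cells was −0.0075 in place of 1.33, and for basal over luminal cells −0.57 in place of 0.25.

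Sox10, a factor of neural crest and of some glandular epithelia, had higher summed levels in both adult gates than in the embryonic gate. It did not separate single cells, since 35 basal and 68 luminal cells had no read of it. Its level was 108.4 CPM in basal, 35.6 in luminal and 0.300 in embryonic cells. Basal cells ranged from 0 to 1791 CPM with a median of 13.6, and luminal cells from 0 to 1242 with a median of 0. In the embryonic gate 3 cells had a read, and 1 cell with 25 reads (61.6 CPM) held 92.6% of the reads. The basal gate was 360.9-fold (247.8 to 548.1) and the luminal gate 118.4-fold (81.2 to 180.1) above the embryonic gate. Without that cell the embryonic level was 0.0223 CPM.

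Sox10 was detected in 27.8% of basal cells (19.6% to 37.2%) and 10.7% of luminal cells (5.66% to 17.97%), and these intervals did not overlap. No thinned embryonic cell had 5 reads, which allows up to 2.36%, while at full depth 1 embryonic cell did, the cell with 25 reads. The basal gate exceeded the luminal gate 3.05-fold (2.91 to 3.20). In the wells of 50 cells the counts were 13 basal, 9 luminal and 1 embryonic read, or 21.6, 16.9 and 1.61 CPM, and the basal to luminal step of 1.28-fold had an interval of 0.506 to 3.39. Of 8 Schwann cell or neural crest markers, Foxd3 and Cdh19 had no read in any gate, and no cell of any gate had 3 of them detected. Their summed level per cell reached 920.1 CPM in embryonic, 1528 in basal and 2307 CPM in luminal cells. Erbb3 was the highest of them, at 83.7 CPM in the embryonic, 67.1 in the basal and 165.5 in the luminal gate. No other marker of this list exceeded 4.14 CPM in any gate. The part of cells with these markers in the Sox10 levels was not tested.

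Bcl11b, a zinc finger repressor known from T cells and embryonic skin, was the member most widely detected in embryonic cells. It was at 410.9 CPM in the embryonic gate, 40.1 in the basal gate and 2.14 in the luminal gate. Embryonic cells ranged from 0 to 4741 CPM with a median of 297.4 and 3 cells at 0. Basal cells ranged from 0 to 1029 CPM and luminal cells from 0 to 168.7, both with a median of 0, and 19 basal and 8 luminal cells had a read. Embryonic cells exceeded basal cells 10.3-fold (9.82 to 10.7) and luminal cells 192.4-fold (163.5 to 227.9).

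Bcl11b was detected in 81.1% of embryonic cells (73.2% to 87.5%), 6 basal cells (5.56%, 2.07% to 11.7%) and 2 luminal cells (1.79%, 0.217% to 6.30%). Both of these luminal cells lay in plate row F, which also held basal cells. The 6 basal cells stood at 1029, 627.6, 601.3, 577.7, 330.0 and 97.8 CPM. The lowest of them matched the embryonic well of 50 cells and the others the basal well, and all carried Acta2, smooth muscle actin, at 3865 CPM or more. In the wells of 50 cells the embryonic level of 207.5 CPM was 6.94-fold above the basal level of 29.9 CPM (4.22 to 12.1), with 0 luminal reads. Of the T cell markers, Cd3e, Cd3g and Cd2 had 0 reads in all gates, and no cell had 3 of the 7 detected. Lck, a kinase of T cells, was at 17.85 CPM in embryonic cells, 3.37 in basal and 0.644 in luminal cells, the same order as Bcl11b. Their summed level reached 648.5 CPM in an embryonic, 378.5 in a basal and 59.4 in a luminal cell, and its part in the Bcl11b levels was not tested.

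Bcl11a, the paralog known from B cells and fetal red cells, followed the same order in the single cells. Its level was 154.9 CPM in the embryonic gate, 14.3 in the basal gate and 7.96 in the luminal gate, with medians of 51.3, 0 and 0 CPM and highest cells at 1350, 426.9 and 171 CPM. The embryonic level was 10.8-fold above basal (10.1 to 11.7) and 19.5-fold above luminal (17.9 to 21.2). A single basal cell, 1 of the 2 that matched the embryonic well, held 71.6% of the basal reads, and the basal level was 4.15 CPM without it. The log2 ratio of Bcl11a for basal over luminal cells, 0.77 with all cells, was −0.65 without the cells that match another gate.

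Detection of Bcl11a was 37.8% in embryonic (29.3% to 46.8%), 1.85% in basal (0.225% to 6.53%) and 3.57% in luminal cells (0.982% to 8.89%). The wells of 50 cells showed a smaller step. There the embryonic well held 24 reads (38.6 CPM), the basal well 14 (23.3 CPM) and the luminal well 2 (3.75 CPM), so the embryonic to basal ratio was 1.66 with an interval of 0.825 to 3.47. An antisense neighbour that overlaps Bcl11a, 4930538E20Rik, had 38 reads in all embryonic cells against 13930 of Bcl11a.

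The 2 Bcl11 genes had the embryonic maximum in common, and Irx4 is set beside them as an adult basal gene. RefSeq promoter windows (GRCm38.p6, 250 bases before to 50 after a start) were matched for these 3 of the 6 members. From each window only the bases before the start and before the first GENCODE M21 exon within that window are shown. They run 5′ to 3′ on the gene's strand, with matches to the motifs below in capitals. The Bcl11a stretch is chr11:24080445-24080669 on the plus strand and lies within the annotated gene, between exons. The Bcl11b stretch is chr12:108003603-108003664 on the minus strand and the Irx4 stretch is chr13:73260247-73260478 on the plus strand. Both lie upstream of their genes.
Bcl11a: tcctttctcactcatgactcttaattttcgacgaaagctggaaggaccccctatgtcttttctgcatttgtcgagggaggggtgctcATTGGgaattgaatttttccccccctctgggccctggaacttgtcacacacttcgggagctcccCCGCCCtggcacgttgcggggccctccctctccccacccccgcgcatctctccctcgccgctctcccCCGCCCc
Bcl11b: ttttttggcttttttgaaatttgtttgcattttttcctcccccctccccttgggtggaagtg
Irx4: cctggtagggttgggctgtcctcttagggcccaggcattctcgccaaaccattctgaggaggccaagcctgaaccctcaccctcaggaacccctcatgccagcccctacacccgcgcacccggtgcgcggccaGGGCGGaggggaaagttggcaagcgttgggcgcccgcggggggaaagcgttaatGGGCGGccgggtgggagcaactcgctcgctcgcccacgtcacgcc

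The motifs, searched on both strands of the 300-base windows with overlaps allowed, were GGGCGG, known as the GC box, the CCAAT box, the core of SOX sites with the letters ACAAT, and the TATA box with the letters TATAAA. Over all 32851 promoter windows of the table, 35.7% held GGGCGG, 37.4% CCAAT, 31.02% ACAAT and 13.6% TATAAA. Bcl11a held GGGCGG at 2 places and CCAAT at 1, Irx4 held GGGCGG at 2 places, and Bcl11b held TATAAA at 1 place across its start, outside the stretch shown. No window of these held ACAAT. The windows also differed in base composition, with 70.7% G and C in Irx4, 63% in Bcl11a and 43% in Bcl11b against a median of 52.7% over all windows. The windows of the 2 Bcl11 genes, which had the embryonic maximum in common, thus differed in composition. They are not windows of the same kind. The Bcl11a window lies within the annotated gene, and 62 of the 300 bases of the Bcl11b window lie upstream of its gene. Which start the cells used was not tested. A match is a description of these letters and not a bound site.

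Members that differed between gates were counted against all genes. Differences of at least 2-fold, on log2 ratios with 1 CPM added to each level, were counted among genes with 5 CPM or more in either gate. Of the 6 members, 4 were at least 2-fold higher in basal than in luminal cells (Trp63, Irx4, Bcl11b and Sox10) and 0 lower, where 28.3% of all genes were higher, 21.3% lower and 49.6% either. Sox9 and Bcl11a lay within 2-fold. The log2 ratio of Sox10, 1.58 here, was 0.76 with spike-ins as the total. The median log2 ratio of the members was 2.65 against 0.14 over all genes.

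Between basal and embryonic cells all 6 members were at least 2-fold apart, where 53.2% of all genes were. Trp63, Sox9, Sox10 and Irx4 were higher in basal cells (19.4% of all genes) and Bcl11a and Bcl11b lower (33.8% of all genes). Trp63 lay close to the limit: its log2 ratio of 1.03 was 0.80 with the mean of per-cell CPM and 0.79 in thinned cells, under 2-fold in both. Between embryonic and luminal cells all 6 were again at least 2-fold apart, where 56.9% of all genes were. Trp63, Bcl11a, Bcl11b and Irx4 were higher in embryonic cells (39.3% of all genes), and Sox9 and Sox10 lower (17.6% of all genes). Sox9 lay close to the limit here too, with a log2 ratio of −1.07 that was −0.95 in thinned cells and −0.96 in the wells of 50 cells. The 6 genes were picked as lineage factors, and each gate is 1 sample, so these counts describe the list.

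The paralogs of the members were compared per exon length (RPKM, CPM per 1000 exon bases), since only this scale allows levels of different genes to be set side by side. In the p53 family, Trp63 at 57.3 RPKM exceeded Trp53, the stress-response tumour suppressor, at 39.5 RPKM in basal cells. In embryonic cells Trp53 at 62.02 RPKM exceeded Trp63 at 28.04, and in luminal cells Trp53 was at 18.5 and Trp63 at 0.331 RPKM. Trp73, the remaining family member, was an embryonic gene at 6.48 RPKM against 0.239 in basal cells. Its CPM was 27.2-fold higher in embryonic than in basal cells (21.5 to 34.8).

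In the SoxE family, Sox9 was above Sox10 in each gate, at 81.6 against 35.5 RPKM in basal, 68.4 against 11.7 in luminal and 32.4 against 0.0984 in embryonic cells. Sox8, the paralog of both, was a low basal gene at 5.80 RPKM, with 0.310 in embryonic and 0.0235 RPKM in luminal cells. It was detected in 4 basal cells (3.70%) and had 0 reads in the 3 wells of 50 cells.

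Iroquois genes split into adult and embryonic members. Irx2 was the highest of the 6 in basal cells at 83.7 RPKM, above Irx4 at 34.1, and also the highest in luminal cells at 36.4, where Irx4 was at 0.180. Irx2 was detected in 52.8% of basal, 30.4% of luminal and 6.30% of embryonic cells. Irx5 and Irx3 led in embryonic cells at 66.4 and 44.4 RPKM and were lower in basal cells at 17.5 and 7.69. Irx6 was highest in the embryonic gate at 7.96 RPKM, with 0.180 in basal and 0.0087 in luminal cells. Irx1 was at 7.59 RPKM in basal, 2.79 in luminal and 1.27 in embryonic cells. The wells of 50 cells gave Irx2 16.3-fold more in the basal than in the embryonic well (8.01 to 38.5) and Irx3 3.99-fold less (1.81 to 10.0). There Irx5 was 1.66-fold lower in the basal well (1.06 to 2.66), which is under 2-fold. Irx1 was 2.58-fold higher with an interval of 0.423 to 27.1, and Irx6 had 3 embryonic and 0 basal reads.

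**Figure D3:**
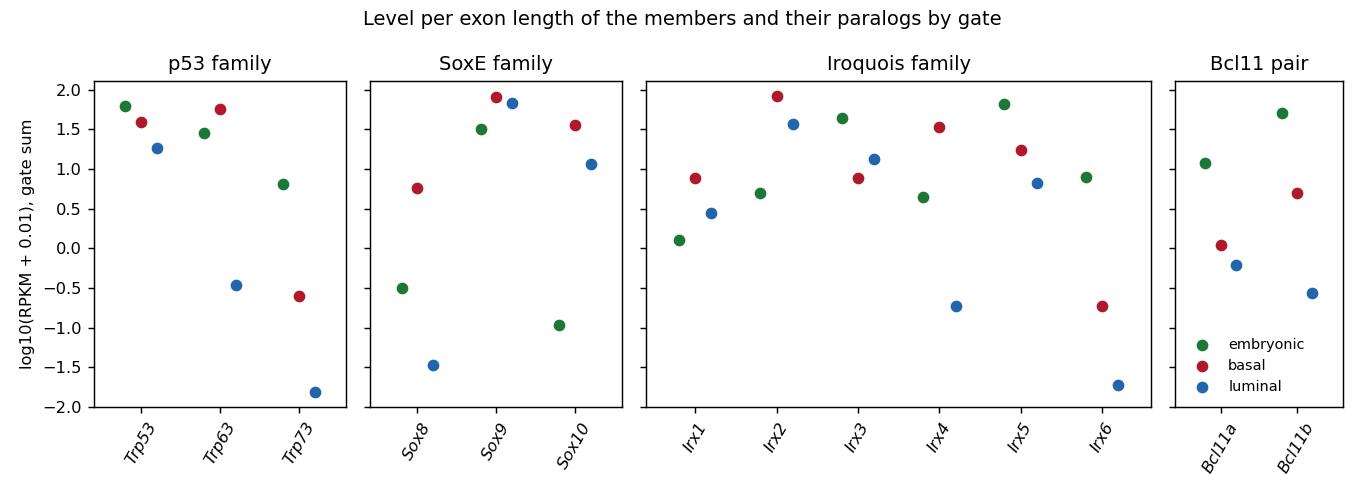
Level per exon length, as log10(RPKM + 0.01) of the gate sum (y axis), for the members and their paralogs (x axis), with 1 point per gate. In the Iroquois panel Irx2 and Irx4 peak in the basal gate, at 83.7 and 34.1 RPKM, and Irx3, Irx5 and Irx6 in the embryonic gate.

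Other genes of the basal program were taken from lists, with up to 4 named by level. Beside the counts below, 28.3% of all genes were at least 2-fold higher in basal than in luminal cells and 21.3% lower. Against embryonic cells 19.4% of all genes were higher in basal cells and 33.8% lower. Of 17 keratin and adhesion genes tied to p63, 12 were at least 2-fold higher in basal than in luminal cells and 0 lower (median log2 2.34). Krt14, a basal keratin, was at 2193 against 36.6 CPM, Itga6, a laminin receptor subunit, at 969.6 against 378.5, Dst, a plakin that links keratins to the membrane, at 951.1 against 376.2, and Krt17 at 937.9 against 11.5 CPM. Against embryonic cells 8 were higher in basal cells and 2 lower (median log2 0.57), with Itga6 at 996.5 CPM and Krt14 at 1009 CPM in embryonic cells. Krt15 and Fras1, a matrix protein of skin, were the 2 lower genes, at 40.0 and 26.8 CPM in basal against 331.3 and 384.8 CPM in embryonic cells.

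All 8 genes of a smooth muscle contraction list were at least 2-fold higher in basal cells than in luminal cells (median log2 6.48) and than in embryonic cells (median log2 7.64). Acta2 was at 9455 CPM in basal, 99.5 in luminal and 24.5 in embryonic cells, and Myl9, a myosin light chain, at 1276, 8.72 and 48.3 CPM. Among 10 other basal regulators 9 were measured. Of these 6 were higher in basal than in luminal cells and 6 higher in basal than in embryonic cells, with 0 and 1 lower. Nfib was at 970.4 CPM in basal, 834 in embryonic and 596.2 in luminal cells, Egr2 at 316.2, 97.1 and 20.03 CPM, Wwtr1, a cofactor of the Hippo pathway, at 252.8, 94.6 and 193.7 CPM, and Id4, an inhibitor of helix-loop-helix factors, at 239.2, 49.6 and 5.72 CPM.

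Luminal regulators went the other way in the adult gates, with 8 of 12 at least 2-fold lower in basal cells and 0 higher (median log2 −2.50). Cited1, a cofactor of hormone-sensing cells, was at 80.9 CPM in basal against 666.4 in luminal cells, Ehf, an epithelial ETS factor, at 68.4 against 262.1, and Esr1, the estrogen receptor, at 58.6 against 232.2 CPM. Gata3, a luminal regulator also needed in skin, was at 180.8, 174.9 and 821.9 CPM in basal, luminal and embryonic cells. Of 12 genes for chromatin proteins with which Bcl11 factors are known to assemble, 8 were at least 2-fold higher in embryonic than in luminal cells. The share over all genes was 39.3%, and the median log2 was 1.56 against 0.58 over all genes. Against basal cells 8 of the 12 were higher in embryonic cells, where 33.8% of all genes were. Between basal and luminal cells 0 of 12 differed 2-fold, where 49.6% of all genes did. Smarcc1, a remodelling subunit, was at 367.8 CPM in the embryonic gate, 120.5 in the basal gate and 72.8 in the luminal gate. These lists were chosen with earlier results of these data known and give no independent support.

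Within the luminal gate, the members were set against markers of the hormone-sensing cells, which carry hormone receptors, and of the secretory cells, which make milk proteins. A score, the mean log2(CPM + 1) of 10 hormone-sensing genes minus that of 11 secretory genes, divided the luminal cells at 0 into 48 hormone-sensing-side and 64 secretory-side cells, with 2 within 0.5 of the split. The split is a range of a score and not a cell type. Genes of the score differ between the sides by construction, such as Prlr, the prolactin receptor, at 5134 against 237.9 CPM, and Csn3, a milk casein, at 35.7 against 10860 CPM. The sides differed in genes per cell, with medians of 4700 and 3065.

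Most luminal reads of Bcl11a and Sox10 lay on the secretory side, and those of Sox9 on both. Of the 544 luminal Bcl11a reads 542 were on the secretory side, where 26 of 64 cells had a read against 1 of 48. The level was 15.6 against 0.0593 CPM, and the hormone-sensing level rests on 2 reads (ratio 263.8, 72.7 to 2184). In thinned cells Bcl11a was detected in 4 of 64 secretory-side cells (6.25%, 1.73% to 15.2%) and 0 of 48 others, and with an exact upper bound of 7.40% for the latter these ranges overlapped. Sox10 was at 67.2 CPM on the secretory and 3.03 on the hormone-sensing side, 22.2-fold apart (18.2 to 27.4). It was detected in 12 of 64 secretory-side cells (18.8%, 10.1% to 30.5%) and 0 of 48 others, which allows up to 6.25%. The secretory-side cells had fewer genes with a read, and the part of this in the Bcl11a and Sox10 levels was not tested. Sox9 was at 316.5 CPM on the hormone-sensing and 249.9 on the secretory side, with medians of 210.6 and 123.7 CPM and detection in 66.7% (51.6% to 79.6%) and 53.1% (40.2% to 65.7%) of cells.

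**Figure D4:**
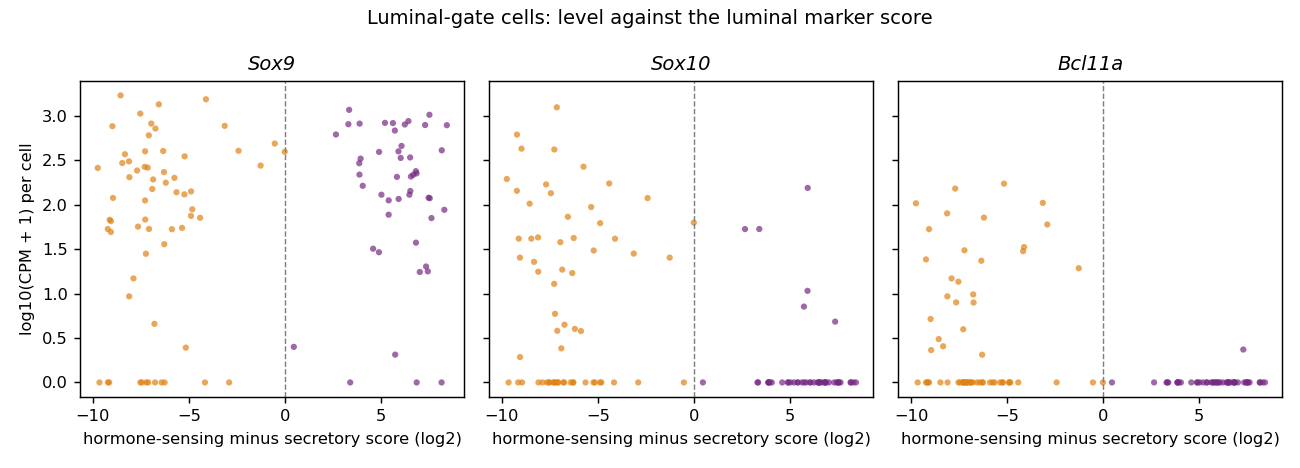
Level of Sox9, Sox10 and Bcl11a as log10(CPM + 1) (y axis) in each luminal-gate cell against the score of hormone-sensing minus secretory genes (x axis, log2 units). The dashed line is the split at 0. Sox9 is present on both sides, while 38 of the 44 cells with a Sox10 read and 26 of the 27 with a Bcl11a read lie on the secretory side.

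Within the embryonic gate, the members were compared between cells by the marker lists they carried, a cell being a carrier with 3 genes of a list detected. This grouping was chosen after the data were seen. Keratin and adhesion genes were carried without fibroblast markers by 100 cells and with them by 13, while 11 cells carried fibroblast markers alone and 3 neither. Those 11 cells had Col1a1, a fibrillar collagen, at 5798 CPM against 24.6 in the 100 cells with keratin and adhesion genes only. Pdgfra, which encodes the CD140a protein that the sort excluded, was detected in 10 of the 11 cells, at 530.8 CPM. Of the other types that the gate could hold, no cell carried 3 immune, melanocyte, chondrocyte, Merkel cell or hair placode markers, 1 carried 3 of the suprabasal epidermis, and 64 carried 3 pan-luminal genes.

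Bcl11b and Bcl11a were detected in cells with and without epithelial genes, while Trp63 had no read in the 11 cells with fibroblast markers alone. These 11 cells were set apart by not carrying the keratin and adhesion genes tied to p63, so their Trp63 level is not independent of the grouping. In the 13 cells that carried both lists Trp63 was detected in 10, at 424 CPM. Bcl11b was detected in 11 of the 11 cells with fibroblast markers alone (71.5% to 100% by interval), which ranged from 216.6 to 1288 CPM with a median of 510.1. In the 100 keratin and adhesion cells it was detected in 77 (67.5% to 84.8%), with a range of 0 to 4741 CPM and a median of 274 CPM. Bcl11a was detected in 4 of the 11 cells (36.4%) and 39 of the 100, at 174.7 and 149 CPM. Trp63 had 0 reads in the 11 cells, which allows detection in up to 27.3% of such cells, against detection in 51 of the 100 at 236.7 CPM. Sox9 was at 17.1 against 135.6 CPM and was detected in 1 of the 11 cells. Lgr5, the sorted reporter gene, was detected in 4 of the 11 and 82 of the 100 cells.

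The embryonic level of Bcl11b does not rest on the fibroblast-marked cells. Without cells in doubt (those that match another gate, embryonic cells with 3 fibroblast and basal cells with 3 endothelial markers) it was 406.5 CPM in embryonic and 48.7 CPM in basal cells. Bcl11a was then at 148.6 and 5.05 CPM, and Trp63 at 236.2 and 554.7 CPM. The 13 cells with both lists had Trp63 at 424 CPM and Bcl11b at 360.5 CPM. No doublet caller was run, and whether such wells held 2 cells was not tested.

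**Figure D5:**
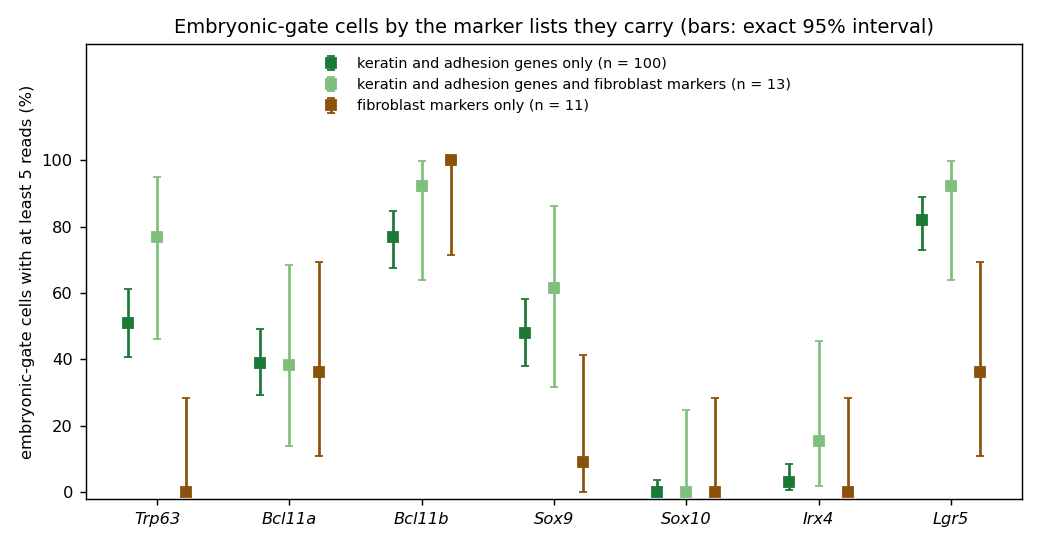
Percent of embryonic-gate cells with at least 5 reads (y axis) for the 6 members and Lgr5 (x axis), by the marker lists a cell carried (colour), with exact 95% intervals. Cells with fibroblast markers only, 11 in number, show Bcl11b in 11 and Trp63 in 0 cells. These 11 cells were set apart by not carrying the keratin and adhesion genes tied to p63.

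Within the basal gate, 89 cells carried smooth muscle contraction genes. In these Trp63 was at 570.9, Sox9 at 371.9, Irx4 at 107.5, Bcl11b at 48.5 and Bcl11a at 17.3 CPM, and Sox10 was detected in 33.7% of cells. In the 19 other basal cells Trp63 was at 50.1 and Sox9 at 173 CPM, Sox10 at 0.2 and Irx4 at 0.1 CPM, and Bcl11a and Bcl11b had 0 reads. The 8 cells that matched the luminal well had Krt8, a luminal keratin, at 6318 CPM, Trp63 at 69.6 and Sox9 at 272.9 CPM, Sox10 at 0.3 and Irx4 at 0.8 CPM. In 6 basal cells with 3 endothelial markers Trp63 was at 4.5 and Sox9 at 35.3 CPM. Sox9 thus had reads in each of these sets of basal-gate cells, and Sox10 and Irx4 lay below 1 CPM in the 19 cells without contraction genes. The sets were made by separate rules and can share cells. A carrier needs 3 detected genes, and the part of genes per cell in these levels was not tested. Oxtr, Myh11 and Acta2 of the contraction list are also among the genes most like Sox10 or Irx4 below, so this grouping is not independent of them.

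Members were found together in single cells to different degrees. Of the embryonic cells 46 had 2 members detected, 34 had 3, and 7 had none. In basal cells 36 had 1 member, 27 had 2 and 20 had none, and in luminal cells 59 had 1, 12 had 2 and 40 had none. Among the embryonic cells with keratin and adhesion genes, Sox9 was detected in 37 of 61 cells with Trp63 (60.7%, 47.3% to 72.9%) and 19 of 52 without (36.5%, 23.6% to 51.04%). Bcl11b was detected in 81.97% of the cells with Trp63 and 75% of those without, and Bcl11a in 36.1% and 42.3%. Among the 89 basal cells with contraction genes, Sox10 was detected in 39.3% of 56 cells with Trp63 (26.5% to 53.3%) and 24.2% of 33 without (11.1% to 42.3%), and Sox9 in 62.5% and 57.6%. All of these pairs of intervals overlapped. Genes per cell were 5506 against 5552 in embryonic cells with and without Trp63 and 2924 against 2434 in basal cells.

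For each member, the genes with the most similar pattern over all 347 kept cells were found by Spearman's rho among 5086 genes detected in at least 10% of the cells. The cells of a gate share their sort, plate rows and depth, so these values are descriptions. Trp63 was most like Cxcl14, a chemokine gene (rho 0.62), Krt5, a basal keratin (0.61), and Krt14 (0.60), and within basal cells these values were 0.37, 0.18 and 0.33. Bcl11b was most like Igf2, a fetal growth factor (0.86), Cdkn1c, a cell cycle inhibitor (0.81), and the imprinted RNA H19 (0.81), with 0.22, 0.03 and 0.10 within embryonic cells. Bcl11a was most like Sox11 (0.58), Cdkn1c (0.57) and Ccnd2, a D-type cyclin (0.56), with 0.08, 0.01 and 0.11 within embryonic cells. The likeness of both Bcl11 genes thus followed the difference between gates and was weak from cell to cell.

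Sox10 was most like Plekhb1 (0.56), Oxtr, the oxytocin receptor of contractile cells (0.52), and Myh11, smooth muscle myosin (0.50), with 0.39, 0.43 and 0.31 within basal cells. Irx4 was most like Oxtr (0.41), Prelp, a matrix proteoglycan (0.40), and Acta2 (0.39), with 0.30, 0.22 and 0.33 within basal cells. For Sox9 the highest values were 0.27 for Plekhb1, 0.27 for Oxtr and 0.26 for Fam102a, which name no close pattern over all cells. Within basal cells these values were 0.33, 0.35 and 0.31, within the span of those of Sox10 and Irx4.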

How the data were processed

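The authors deposited whole-number read counts per gene for 384 wells, with 92 spike-in rows. Per the submitters' processing notes cutadapt 1.13, STAR 2.5.2b and HTSeq 0.6.0 were used with GRCm38. No source used here states their roles, the annotation or the strand mode. GENCODE M21 gave symbols, exon lengths and coordinates: 43749 identifiers matched with their version, 5577 without it and 259 did not match. Sox10 was matched without the version.

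Wells were grouped by title and sort label, and 1 well with a title and a sort label of different gates was left out of every comparison. Of 376 single wells 347 were kept by the limit of 50000 reads on genes, which is the only filter. Gate levels, log2 ratios (prior 1 CPM), thinned shares (50000 reads, 5 reads for detection) and exact intervals were computed in Python 3.11.15, and alternative scalings with edgeR 4.0.16 and DESeq2 1.42.0. The scripts were tested on simulated data. No test between gates was made, since each gate is 1 sample.

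The members, gene lists and rules were chosen with earlier results of these data known. All 6 members were named, up to 4 genes by level per list, all paralogs, and the 3 most similar genes per member. Genes outside this rule (Krt15, Fras1, Krt8, Lgr5, Prlr, Csn3, Col1a1, Pdgfra, Lck, Erbb3 and marker genes at 0) were chosen after their values were seen.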

Additional observations from a re-analysis of the deposited data

Results flagged for a closer look

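The well whose title names a luminal cell and whose sort label names the embryonic gate, left out of all comparisons, held reads of 3 members where the wells without a cell held 0. It had 496 Sox9 reads (640.8 CPM), 155 Sox10 reads (200.2 CPM) and 72 Bcl11a reads (93.02 CPM) among 774060 gene reads, and 0 reads of Trp63, Bcl11b and Irx4. Its Spearman correlation over 10315 genes was 0.45 with the luminal, 0.37 with the basal and 0.29 with the embryonic well of 50 cells. The well had Csn3 at 15939, Krt8 at 1543 and Krt5 at 0 CPM. Its score of hormone-sensing minus secretory genes was −9.77, on the secretory side, where most luminal Sox10 and Bcl11a reads lay.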

How the results depend on the processing

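The counts of members past 2-fold were recomputed under other filters, scalings and subsets, and, chosen after seeing the data, without the top cell of each gate. Of these counts 72 stayed within 1.5 times and 6 moved. Basal over embryonic, the count higher was 2 in place of 4 with spike-ins as total, and the count lower was 1 in place of 2 in the wells of 50 cells. Embryonic below luminal, the count was 1 in place of 2 with mean per-cell CPM, thinned cells, spike-ins and wells of 50 cells. Of the log2 ratios 70 stayed within the counting error of the reported value, 162 moved beyond it, and 2 that had passed 2-fold changed sign, both with spike-ins and for basal over embryonic: Trp63 (−0.31) and Sox9 (−0.0075). Spike-ins moved the median of all genes by −1.29 there, and TMM by 0.31. In the top 6 plate rows, with 8 embryonic cells, the log2 ratios of Trp63 and Irx4 were 2.26 and 6.52. The causes were not tested. Depth limits Irx4, Sox10 and Bcl11a most, with 1 to 24 reads or 0 in the wells of 50 cells. No paired analysis was possible because the labels give no replicate numbers and each gate is 1 sample.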

Other observations

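The 6 basal cells with Bcl11b detected, chosen after their values were seen, included 3 with Lgr5 detected (50%, interval 11.8% to 88.2%), against 21 of the other basal cells (20.6%, 13.2% to 29.7%), and these intervals overlapped. Their Lgr5 levels were 1859, 1417, 509.4, 133.6, 5.10 and 0 CPM. Trp63 was at 273.5 CPM or less in all 6, and Krt5 at 516.5 CPM or more.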
